A study of Homo sapiens with 9 samples.

Results

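The 38 genes described here are genes of the germline, of the piRNA pathway and of meiosis. They were picked by name from the 36337 gene names on the array, with earlier results of these data known. They were read by 52 of the 50599 probes, with 1 probe for 27 genes and several probes for 11. Unless another probe is mentioned, a gene is described by its probe with the highest mean over all 9 arrays. Arrays on which a gene was high therefore helped to choose its probe. For STAG3 and FKBP6 the RefSeq table also lists transcribed pseudogenes, and whether their probes read those transcripts was not tested. RNA came from RKO, a colorectal cancer cell line, and was hybridized in 1 colour to 9 human gene expression arrays of Agilent (SurePrint G3, v2) in 5 conditions, to ask how far silenced genes return when the DNA methylation factor UHRF1 is lost, when histone deacetylases are blocked, and when both are done. The siCONT cells received a control siRNA and then ethanol as the mock treatment (2 arrays). The siUHRF1 cells received an siRNA against UHRF1 and then mock, with a different siRNA on each of the 2 arrays (siUHRF1-1 and siUHRF1-2). The siCONT + TSA and siUHRF1 + TSA cells (2 arrays each) received the same siRNAs for 72 h and then 300 nM of trichostatin A (TSA), a histone deacetylase inhibitor, for another 24 h. The fifth condition, 5-aza-dC, was RKO given 1 µM of 5-aza-2'-deoxycytidine, an inhibitor of DNA methyltransferases, for 72 h without any siRNA (1 array). Knockdown was transient, all cells were of the same line, and the replicate siCONT arrays are not described as separate cultures. The p-values therefore measure the spread between these arrays, which may be technical for siCONT and includes the difference between the 2 siRNAs for siUHRF1.

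Germ cells protect their genome with piRNAs, small RNAs that PIWI proteins carry to transposon transcripts. Tudor proteins dock PIWI proteins into the nuage, the granule near the nucleus where piRNAs are made, and helicases and nucleases process their precursors. In meiosis, cohesins with REC8 and STAG3 and the HORMA-domain proteins form the axis of each chromosome, the synaptonemal complex zips homologues together, and SPO11 and DMC1 make and repair the breaks that lead to crossovers. In somatic cells many of these genes carry methylated CpG-rich promoters and are silent, and for that reason they are often used as readouts of lost DNA methylation. UHRF1 recognises hemimethylated DNA after replication and recruits DNMT1 to it.

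A level is given here as a percentage of the 75th percentile of all signals on its own array. A probe is called above background where Feature Extraction, the scanner software, flagged it well above background. Below that limit a level has no order, and the lowest signal above background lay from 4.34% to 5.93% on siRNA arrays and was 3.40% for 5-aza-dC. Where no array of a group was above background, a fold change is a lower bound, taken against the higher of that array's lowest signal above background and the gene's own signal. A p-value printed beside such a bound tests the fitted log2 difference, which uses the signals below background as measured, and not the bound. The 8 siRNA arrays shared 1 slide and 1 scan. On that slide the arrays without TSA were in row 1 and those with TSA in row 2. With and without TSA, siCONT arrays were in columns 1 and 2 and siUHRF1 arrays in columns 3 and 4. Position on the slide and treatment therefore cannot be told apart. The 5-aza-dC array was on another slide and was scanned apart, its 75th percentile was 822 against 245 to 338 on the siRNA arrays, and 51.6% of its probes were above background against 43.6% to 46.6%. Slide, scan and treatment cannot be told apart for that array, whose spread was assumed to be like that of the other groups, and cell number and RNA per cell cannot be told apart in any of these samples. Replicates of siCONT and of siCONT + TSA differed by a median of 0.07 and 0.08 in log2 units, those of siUHRF1 by 0.26 and those of siUHRF1 + TSA by 0.19. The fit took 1 spread for each probe over all groups. That spread may be too small for comparisons with siUHRF1 arrays and too large for siCONT + TSA against siCONT. The targeted gene, UHRF1, was lower by 2.47 log2 units (log2 -2.47) after siUHRF1 (SE 0.14, limma adjusted p = 0.00238) and by 3.17 (log2 -3.17) after siUHRF1 + TSA (adjusted p = 0.000113), each against siCONT. Of 8 markers of epithelial and colon cells, CDX2, KRT8 and KRT18 were above background on every array, whereas CDH1, VIL1 and LGALS4 were not in siCONT or with 5-aza-dC. KRT19 was at least 4.26-fold higher than siCONT in siUHRF1 + TSA and at least 13.3-fold higher with 5-aza-dC, KRT18 was 0.81 higher on the log2 scale in siUHRF1 + TSA (adjusted p = 0.00869), and EPCAM was called higher with 5-aza-dC (at least 12.6-fold, adjusted p = 0.0161). The summed level of the 8 was 4998% to 5044% in siCONT, 7680% to 9387% in siUHRF1 + TSA and 4810% with 5-aza-dC. Of 8 markers of testis soma, the cells that surround germ cells, 3 were above background in each condition and their summed level was 34.0% to 49.2% of the 75th percentile on every array. These were AMH, CYP17A1 and INSL3 in the siRNA conditions and AMH, CYP17A1 and HSD3B2 with 5-aza-dC, where AMH (log2 0.94, adjusted p = 0.0343) and HSD3B2 (at least 1.21-fold, adjusted p = 0.0361) were called higher and INSL3 lower (at least 2.86-fold, adjusted p = 0.000334). FSHR, LHCGR, STAR and DHH were not above background in siCONT or with 5-aza-dC. Of 8 markers of stroma and blood, 3 were above background on every siCONT array, 5 in siUHRF1 + TSA and 6 with 5-aza-dC, where their summed levels were 346% to 372%, 308% to 635% and 842%. Among these, the fibroblast collagen gene COL1A2 rose at least 4.06-fold in siUHRF1 + TSA and at least 3.05-fold with 5-aza-dC, and the part of these 3 sets of markers in the results was not tested.

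The promoters of 4 of the genes, from 250 bases before to 50 bases after the transcription start, are shown because these genes differed in how they answered the treatments. SOHLH1, a transcription factor of early spermatogonia and oocytes, came on when UHRF1 was lost, and TDRD1, a tudor scaffold of the nuage, came on with the combination. DAZL, an RNA-binding regulator of germ cell translation, came on with 5-aza-dC, and SMC1B, a cohesin subunit of meiosis, was above background on no array. The array probes of the first 3 lie on hg19 at chr9:138585266-138585325 (minus strand), chr10:115991963-115992022 (plus) and chr3:16628817-16628876 (minus). The promoter sequences are from RefSeq on GRCh38.p14, on the strand of the gene, and lie at chr9:135699432-135699731 (minus strand, 25 CpG), chr10:114179037-114179336 (plus strand, 17 CpG), chr3:16605374-16605673 (minus strand, 33 CpG) and chr22:45413550-45413849 (minus strand, 34 CpG). Capitals mark each CpG dinucleotide, the target of DNA methylation.
SOHLH1: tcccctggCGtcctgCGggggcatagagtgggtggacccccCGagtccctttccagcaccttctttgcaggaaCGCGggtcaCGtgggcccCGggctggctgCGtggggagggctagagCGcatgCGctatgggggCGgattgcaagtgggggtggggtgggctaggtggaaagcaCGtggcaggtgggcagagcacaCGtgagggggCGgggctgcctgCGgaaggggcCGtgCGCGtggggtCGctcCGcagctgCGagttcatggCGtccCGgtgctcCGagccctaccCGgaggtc
TDRD1: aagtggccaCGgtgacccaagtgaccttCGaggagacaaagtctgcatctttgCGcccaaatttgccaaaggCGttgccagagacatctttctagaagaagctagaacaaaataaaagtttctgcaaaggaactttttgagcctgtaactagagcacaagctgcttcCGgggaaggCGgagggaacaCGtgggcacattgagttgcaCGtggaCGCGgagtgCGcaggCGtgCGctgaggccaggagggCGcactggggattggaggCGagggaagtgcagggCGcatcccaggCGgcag
DAZL: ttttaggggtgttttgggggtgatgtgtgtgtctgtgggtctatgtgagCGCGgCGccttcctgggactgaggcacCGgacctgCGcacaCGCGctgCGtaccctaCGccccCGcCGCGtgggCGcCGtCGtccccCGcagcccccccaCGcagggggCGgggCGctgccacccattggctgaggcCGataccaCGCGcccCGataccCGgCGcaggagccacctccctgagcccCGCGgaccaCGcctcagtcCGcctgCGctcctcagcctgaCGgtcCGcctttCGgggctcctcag
SMC1B: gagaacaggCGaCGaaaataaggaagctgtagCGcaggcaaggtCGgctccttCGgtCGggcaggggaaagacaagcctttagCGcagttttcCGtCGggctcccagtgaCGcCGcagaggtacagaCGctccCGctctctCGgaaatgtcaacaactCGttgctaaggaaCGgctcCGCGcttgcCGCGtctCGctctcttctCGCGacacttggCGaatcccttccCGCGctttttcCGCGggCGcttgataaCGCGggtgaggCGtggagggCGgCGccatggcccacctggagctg

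Most of the genes were below background in control cells, here called silent, and most were above background on the single 5-aza-dC array. That array lay on another slide and scan and came from cells without siRNA. Coming on needed both arrays in a siRNA condition but 1 array for 5-aza-dC, whose limit was lower (3.40% against 4.34% to 5.93%). Above background on both siCONT arrays were 7 of the 38 genes (18.4%), against 45.3% of all gene names. The number was 8 in siUHRF1 (21.1%), 7 in siCONT + TSA (18.4%), 13 in siUHRF1 + TSA (34.2%) and 30 on the 5-aza-dC array (78.9%). For all gene names the shares in these conditions were 46.2%, 44.7%, 46.7% and 53.9%. Of the 29 genes below background on both siCONT arrays, 1 came on in siUHRF1 (3.45%), 0 in siCONT + TSA, 4 in siUHRF1 + TSA (13.8%) and 21 with 5-aza-dC (72.4%). The 21 include SYCP1, at 3.95% with 5-aza-dC, which is under the siCONT limits of 4.86% and 5.15%. Among all 18712 gene names below background on both siCONT arrays, 1.42%, 0.93%, 3.56% and 15.7% came on in these conditions. Because the genes were chosen with earlier results of these data known, these shares describe them and are not independent evidence of an excess. With a gene counted by any of its probes, STK31 left this set because another of its probes was above background on 1 siCONT array. Then 28 genes were below background on both, and 1 came on in siUHRF1, 0 in siCONT + TSA, 3 in siUHRF1 + TSA and 20 with 5-aza-dC, beside 1.39%, 0.905%, 3.54% and 16% of 18667 gene names.

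**Figure D1:**
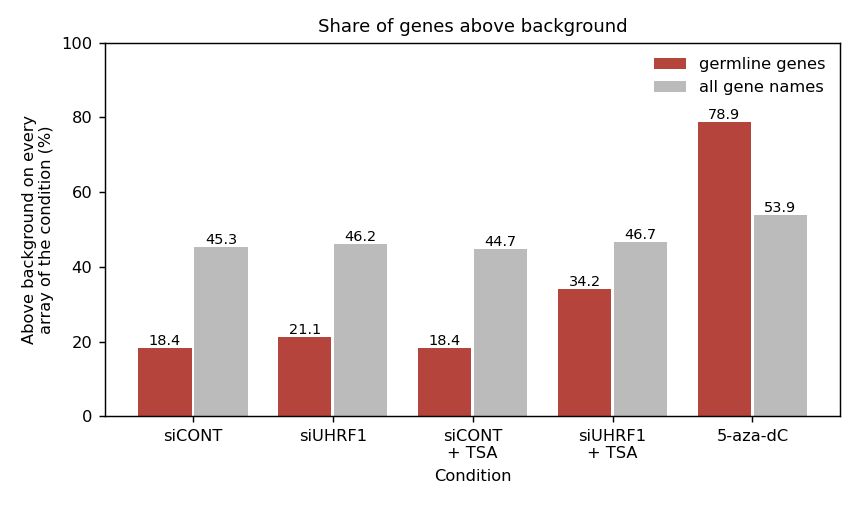
Share of the 38 germline genes (red) and of all gene names (grey) that were above background on every array of a condition, in percent. The genes were chosen with earlier results of these data known. The germline share was 18.4% in siCONT, 34.2% in siUHRF1 + TSA and 78.9% with 5-aza-dC, while the share of all gene names went from 45.3% to 46.7% and 53.9%.

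The detection map by role shows where each gene belonged. Above background on all 9 arrays were PIWIL4, TDRD6, TDRKH, NANOS3, SYCE2, REC8 and STAG3. On 1 siCONT array each, TEX101 and TEX14 were above background. By the probe with the highest mean, above background on no array were PIWIL1, TDRD5, ASZ1, TEX15, HORMAD2, SMC1B, DMC1 and SPO11, so that both recombination enzymes and 1 of the 3 meiotic cohesin genes stayed below the limit of measurement in every condition. By the same probes, 24 genes were above background on none of the 8 siRNA arrays. Over all probes these numbers were 7 and 23, since another probe of TDRD5 was above background on 1 siUHRF1 + TSA array. SYCP3, a core protein of the synaptonemal complex axis, was above background on 1 siUHRF1 + TSA array, at 7.24% against 1.44% on the other.

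**Figure D2:**
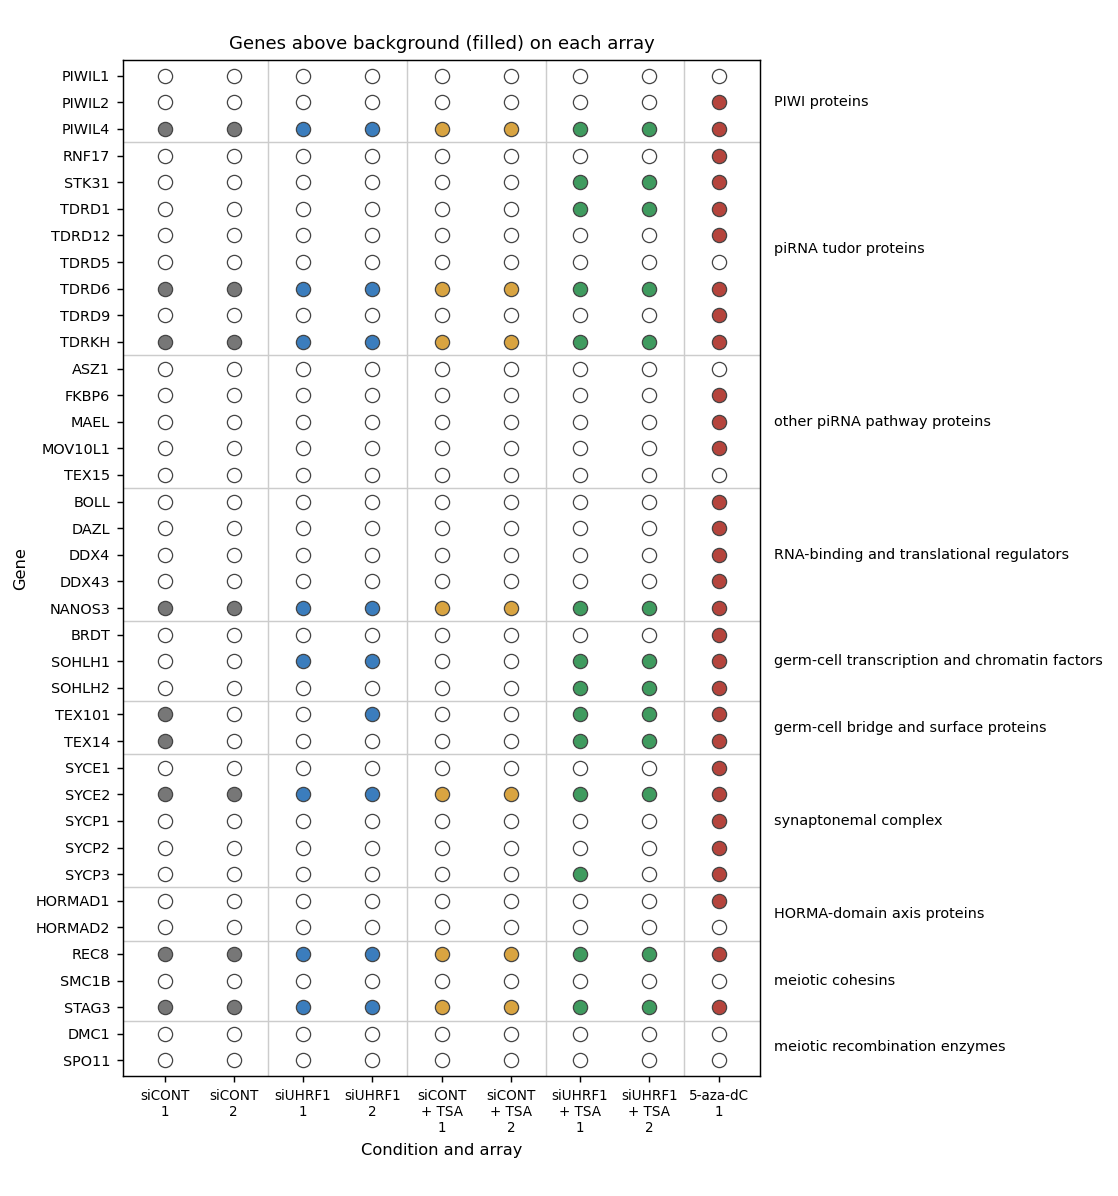
Detection of the 38 genes, in rows by role, on the 9 arrays, in columns by condition. A filled circle is a gene whose probe with the highest mean was above background on that array; 7 genes are filled on all arrays, 8 on none, and 30 on the 5-aza-dC array.

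After loss of UHRF1 alone, SOHLH1 was higher and no other of these genes was called. SOHLH1 was at 1.28% and 1.31% in siCONT, below background, and at 33.2% (siUHRF1-1) and 60.3% (siUHRF1-2) in siUHRF1. Both siRNAs thus gave a measurable level and neither siCONT array did. The rise was at least 8.95-fold (adjusted p = 0.00194 by limma, n = 2 arrays a group). Called higher were 1 of the 38 genes and lower 0, of which 13 had entered the test, beside 0.614% and 0.0282% of the 17739 gene names tested. SOHLH2, the partner of SOHLH1 in the same family of helix-loop-helix factors, was below background on both siUHRF1 arrays, at 4.12% and 3.12%. TEX101, a surface protein of male germ cells, was at 4.28%, below background, with siUHRF1-1 and at 11.7%, above it, with siUHRF1-2. With normexp background correction, the rise of SOHLH1 in siUHRF1 was 1.48 on the log2 scale and was not called (adjusted p = 0.22).

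TSA alone brought none of the 29 silent genes above background. PIWIL4, a PIWI protein that was measured on all arrays, was at 16.2% and 19.4% in siCONT and at 6.79% and 8.88% in siCONT + TSA, so that the groups did not overlap. It fell by 1.19 on the log2 scale (SE 0.21, adjusted p = 0.0231 by limma), but among 11 alternative settings the call was lost in 6 and the direction turned in 1, normexp background correction (log2 0.08). SOHLH1 (3.45% and 4.10%) and STK31 (4.18% and 2.59%) also passed the test in siCONT + TSA, but all their siCONT and siCONT + TSA arrays were below background and no fold is given. Both calls were lost without any 1 of the 4 arrays compared (adjusted p from 0.114 to 0.140 for SOHLH1 and from 0.0959 to 0.211 for STK31). In this comparison 2 of the 38 genes, of which 13 were tested, were called higher and 1 lower, beside 6.97% and 3.85% of gene names tested.

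UHRF1 loss together with TSA raised a small group of the genes, with 2 germ cell transcription factors and 2 tudor proteins among them. SOHLH1 was at 358% and 365% on the siUHRF1 + TSA arrays, at least 72.2-fold over siCONT (adjusted p = 4.60e-05) and at least 63.8-fold over siCONT + TSA. Against siUHRF1 alone, where it was also measured, SOHLH1 was 3.01 higher on the log2 scale (SE 0.27, adjusted p = 0.00269). No array of another siRNA group reached either of these levels. SOHLH2 was at 12.9% with siUHRF1-1 + TSA and at 8.94% with siUHRF1-2 + TSA, and on the 6 other siRNA arrays it was below background. That was at least 2.14-fold over siCONT (adjusted p = 0.000638).

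STK31, a tudor-domain protein of the PIWI pathway with a kinase-like domain, was at 24.0% and 22.3% in siUHRF1 + TSA by its brighter probe, which was below background on every other siRNA array, with levels from 1.26% to 4.18%. Its other probe was below background in siUHRF1 + TSA and at 31.0% on siCONT replicate 2. By the brighter probe it rose at least 4.63-fold against siCONT (adjusted p = 0.000629) and at least 4.09-fold against siCONT + TSA (adjusted p = 0.00512). TDRD1 was at 5.97% and 6.19% in siUHRF1 + TSA, just above the lowest measurable signal of 5.11% and 5.21% on these arrays, and below background on the other siRNA arrays. The lower bound of its rise was 1.22-fold against siCONT and 1.07-fold against siCONT + TSA. The adjusted p of 8.50e-05 by limma against siCONT belongs to the fitted log2 difference of 2.44, which rests on siCONT signals below background. SOHLH2, STK31 and TDRD1 entered the test only through the siUHRF1 + TSA arrays, where they were high. The means that chose the STK31 and TDRD1 probes also included these arrays and the 5-aza-dC array. Over the remaining arrays the other probe of each gene had the higher mean, and it was below background in siUHRF1 + TSA. With normexp background correction SOHLH2 and TDRD1 were not called in the combination (adjusted p = 0.31 and 0.51), nor was STK31 against siCONT + TSA (log2 0.14, adjusted p = 0.742). Against siCONT + TSA the same correction turned the direction of SOHLH2 (log2 -0.17) and TDRD1 (log2 -0.24).

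TEX101 was at 30.1% and 42.5% in siUHRF1 + TSA, at 6.55% and 2.47% in siCONT and at 4.86% and 4.13% in siCONT + TSA. The siCONT level of 2.47% was below background, and with that array at its limit of measurement the rise against siCONT was at least 6.16-fold (adjusted p = 0.0146 by limma on the values as measured). The call was lost without siCONT replicate 2 (log2 2.45, adjusted p = 0.0727) and without siUHRF1_TSA replicate 2 (adjusted p = 0.0699). TEX14, a protein of the bridges that join germ cells, was at 8.71% and 8.30% in siUHRF1 + TSA, above background on both arrays, and at 3.24% and 3.31% in siUHRF1, below it. It was called against siUHRF1 (at least 1.89-fold, adjusted p = 0.0403), but against siCONT, where 1 array was above background at 5.89%, it was not (at least 1.54-fold with the other siCONT array at its limit, adjusted p = 0.134). The call of TEX14 against siUHRF1 was lost without any 1 of the 4 arrays compared (adjusted p from 0.0791 to 0.133).

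**Figure D3:**
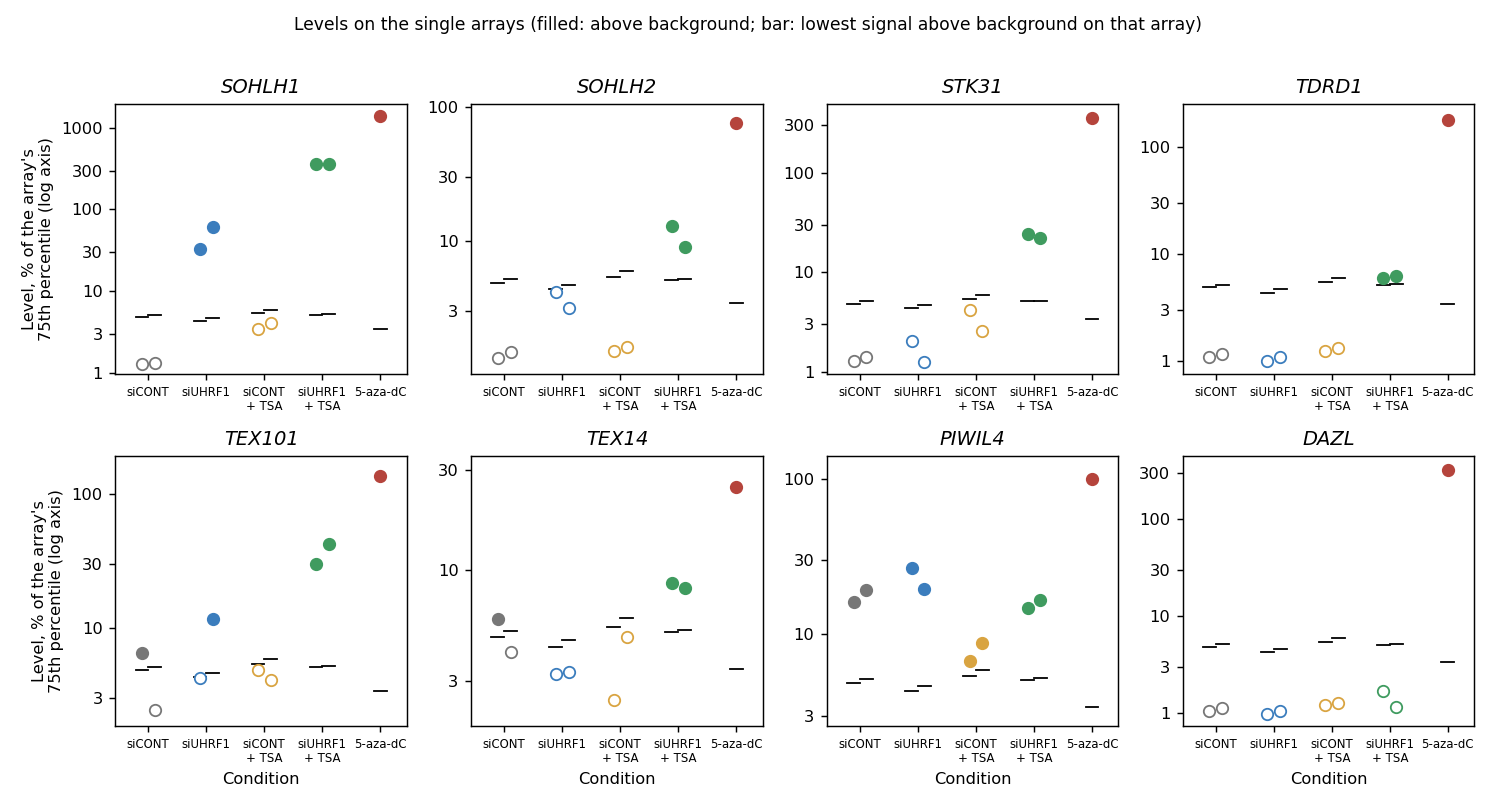
Levels of 8 genes on the single arrays, in percent of the array's 75th percentile on log axes that differ between genes, by condition. Filled points were above background, open points were not, and black bars are the lowest signal above background on each array; SOHLH1 is filled at 33.2% and 60.3% in siUHRF1, 358% and 365% in siUHRF1 + TSA and 1402% with 5-aza-dC, while DAZL is filled with 5-aza-dC alone.

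Of the 38 genes, 13 entered the tests on the siRNA arrays. Called higher in siUHRF1 + TSA against siCONT were 5 of these 13 and lower 0, beside 16.1% and 8.07% of gene names tested. Against siCONT + TSA, 4 were higher and 0 lower, beside 3.27% and 0.581%. Against siUHRF1, 6 were higher and 0 lower, beside 10.8% and 5.48%. These arrays share the siRNAs number by number, and with the replicate number as a block 4 were higher, as TEX101 (adjusted p = 0.0685) and TEX14 (adjusted p = 0.0573) were no longer called. The counts describe the genes and no more, because SOHLH2, STK31, TDRD1, TEX101 and TEX14 entered the test only through the siUHRF1 + TSA arrays, and SOHLH1 through the siUHRF1 and siUHRF1 + TSA arrays. These comparisons share arrays. The difference between the effects of UHRF1 loss with and without TSA passed the test for TDRD1 alone (adjusted p = 0.0025), beside 0.361% of gene names called higher and 0.0282% lower. TDRD1 was below background in siCONT, siUHRF1 and siCONT + TSA and entered the test through siUHRF1 + TSA, so that the size of this difference was not measured, and its direction turned with normexp background correction. For SOHLH1, below background in siCONT and siCONT + TSA, the difference was not called (adjusted p = 0.488) and its size was not measured either.

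The 5-aza-dC array held a broad set of these genes at measurable levels, across every role but the recombination enzymes. Many of them entered the test against siCONT through that array alone, so the filter largely fixed their direction in advance. The p-values of such genes set that single array against signals below background and are no support for a rise. Called higher against siCONT were 25 of the 38 genes and lower 0, beside 25.2% and 23.9% of the 20284 gene names tested. No siCONT array was above background for 20 of these 25 genes, and 17 of the 30 genes that entered this test did so through the 5-aza-dC array alone. Under a scaling on the spike-in RNAs, the median change of all gene names against siCONT was -1.64 on the log2 scale in place of 0.05, and 22 of the genes were higher and 4 lower. Of all called gene names, 51.3% were higher in the main scaling and 8.25% with spike-in scaling, so all changes with 5-aza-dC are relative to the array's overall level. With normexp background correction 16 genes were called higher and 1 lower, and the calls of BRDT, BOLL, RNF17, SYCE1, HORMAD1, TEX14, MOV10L1, PIWIL2 and SYCP2 were lost.

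Among the PIWI proteins, PIWIL4 was at 101% with 5-aza-dC, above all 8 siRNA arrays, which ranged from 6.79% to 27.0%. It was 2.51 higher than siCONT on the log2 scale (SE 0.26, adjusted p = 0.000807), and with spike-in scaling 0.81 higher, which was not called (adjusted p = 0.0798). PIWIL2 was at 7.19% with 5-aza-dC and below background elsewhere, so that it entered the test through that array alone. The rise was at least 1.44-fold over siCONT (limma adjusted p = 7.40e-05 for the fitted difference, not for this bound). With normexp background correction the direction of PIWIL2 turned (log2 -0.25). PIWIL1 was not above background on any array. The PIWI genes therefore divided into 1 measured throughout, 1 measured with 5-aza-dC and 1 not measured.

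Of the 8 tudor genes, 6 were called higher with 5-aza-dC. STK31 was at 353% by its brighter probe (at least 70.6-fold over siCONT), while its other probe, above background on 1 siCONT array, was not called (log2 4.44). TDRD12, a tudor helicase of the piRNA pathway, was at 308% (at least 61.6-fold). TDRD1 was at 180% (at least 36.1-fold, adjusted p = 3.03e-06). TDRD9, a helicase that silences transposons in spermatocytes, was at 136% (at least 27.2-fold). RNF17, a tudor protein of its own germ cell granule, was at 18.3% (at least 3.66-fold). TDRD12, TDRD9 and RNF17 entered the test through the 5-aza-dC array alone. TDRD6, a scaffold of the chromatoid body of spermatids, was measured throughout, at 8.37% and 9.77% in siCONT, 10.8% and 18.3% in siUHRF1 + TSA and 233% with 5-aza-dC. By this probe its rise with 5-aza-dC was 4.69 on the log2 scale (SE 0.33, adjusted p = 0.000183), while its change in siUHRF1 + TSA was 0.63 (95% interval -0.01 to 1.27, adjusted p = 0.136). The second TDRD6 probe did not show the rise and was below background with 5-aza-dC (2.58%). TDRKH, which anchors PIWI proteins at mitochondria, was at 14.9% and 15.6% in siCONT and at 13.5% with 5-aza-dC (log2 -0.18, 95% interval -0.65 to 0.29).

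Of the other 5 piRNA genes, 3 came on with 5-aza-dC. MAEL, a nuage protein of transposon silencing, was at 262% on that array and at most 2.72%, below background, on the siRNA arrays. This was at least 52.3-fold over siCONT, and MAEL entered the test through the 5-aza-dC array alone. FKBP6, a co-chaperone of piRNA loading, was at 52.3% (at least 10.5-fold). The signal of FKBP6 is uncertain because its transcribed pseudogenes were not told apart from it. MOV10L1, the helicase that starts piRNA biogenesis, was at 10.3% (at least 2.06-fold), and with normexp background correction its change was 0.00 on the log2 scale. ASZ1 and TEX15 were not above background on any array.

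Of the 5 RNA-binding regulators, 4 were called higher with 5-aza-dC and NANOS3 was not. DAZL was at 321% with 5-aza-dC and between 0.98% and 1.70%, below background, on the 8 siRNA arrays. It rose at least 64.1-fold over siCONT and at least 62.2-fold over siUHRF1 + TSA, but entered the tests through the 5-aza-dC array alone. DDX43, a helicase first known as a cancer-testis antigen, was at 222% (at least 44.4-fold). DDX4, the VASA helicase that marks germ cells, was at 45.3% (at least 9.05-fold), and BOLL, a relative of DAZL that acts in meiosis, was at 17.5% (at least 3.50-fold). NANOS3, which protects primordial germ cells from death, was measured on all arrays and did not rise. It was at 101% and 98.0% in siCONT, 109% and 163% in siUHRF1 + TSA and 58.9% with 5-aza-dC (log2 -0.76 against siCONT, 95% interval -1.48 to -0.04, adjusted p = 0.0783).

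Of the transcription and chromatin factors, all 3 were called higher with 5-aza-dC. SOHLH1 was at 1402% (at least 280-fold over siCONT, adjusted p = 1.16e-05), SOHLH2 was at 75.7% (at least 15.1-fold), and BRDT, a bromodomain protein of spermatids, was at 18.9% (at least 3.78-fold). TEX101 was at 136%, at least 23.4-fold over siCONT with the siCONT array below background at its limit (adjusted p = 0.00294). TEX14 was at 24.9%, at least 4.52-fold on the same reckoning (adjusted p = 0.00556), and with spike-in scaling it was not called (adjusted p = 0.197).

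Among the synaptonemal complex genes, SYCP3 was at 126% with 5-aza-dC (at least 25.1-fold over siCONT). SYCE1, a protein of the central element of the complex, was at 25.8% (at least 5.15-fold). SYCP2, the axis partner of SYCP3, was at 5.87% (at least 1.17-fold), and its direction turned with normexp background correction (log2 -0.32). SYCP1, the zipper protein itself, was above background with 5-aza-dC at 3.95%, but this was under the siCONT limit of measurement, so that no fold is given, and it was not called. SYCE2, another central element protein, was measured on all arrays and was at 10.1% and 8.86% in siCONT and 7.95% with 5-aza-dC (log2 -0.25, 95% interval -1.06 to 0.55). HORMAD1, an axis protein that is also a cancer-testis antigen, was at 20.5% (at least 4.10-fold over siCONT), whereas HORMAD2 was not above background on any array. SYCP3, SYCE1, SYCP2, SYCP1 and HORMAD1 entered the test through the 5-aza-dC array alone.

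Among the meiotic cohesins, REC8 was at 36.1% and 35.8% in siCONT, 46.7% and 60.8% in siUHRF1 + TSA and 138% with 5-aza-dC. It was 1.94 higher with 5-aza-dC than in siCONT on the log2 scale (SE 0.25, adjusted p = 0.0017), but with spike-in scaling the difference was 0.24 and was not called (adjusted p = 0.226). Its change in siUHRF1 + TSA was 0.57 (95% interval 0.09 to 1.05, adjusted p = 0.0875). The probes of STAG3 disagreed, and whether any of them also reads its transcribed pseudogenes was not tested. The probe with the highest mean, which the array file also assigns to several non-coding transcripts, was at 198% and 204% in siCONT, 231% and 233% in siUHRF1 + TSA and 184% with 5-aza-dC, and it was called in none of the comparisons. A probe that the array file assigns to STAG3 alone among RefSeq transcripts was at 115% and 105% in siCONT, 170% and 162% in siCONT + TSA, 229% and 207% in siUHRF1 + TSA and 586% with 5-aza-dC. It was called higher by 0.60, 0.99 and 2.42 on the log2 scale in these conditions (adjusted p = 0.0437, 0.00526 and 0.000169). The third was above background in siUHRF1 + TSA (10.4% and 8.50%) and with 5-aza-dC (46.6%) and on no other array.

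**Figure D4:**
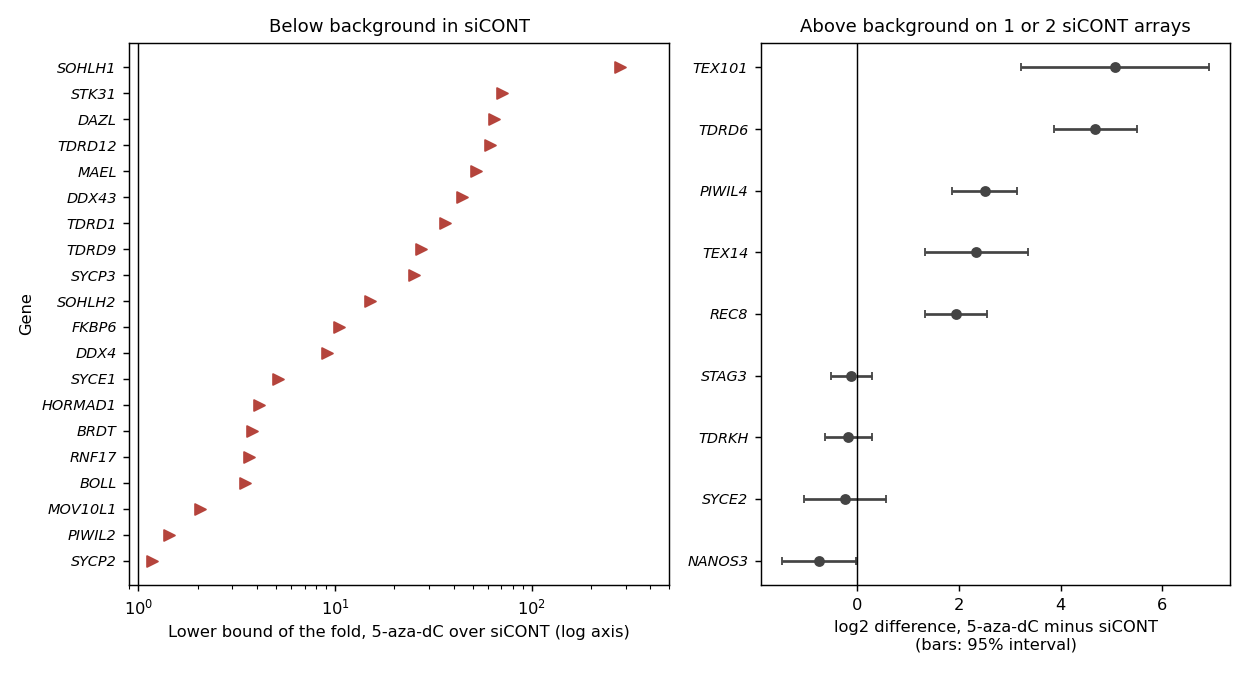
Genes with 5-aza-dC against siCONT: on the left, lower bounds of the fold on a log axis for the 20 called genes below background on both siCONT arrays, from 1.17 for SYCP2 to 280 for SOHLH1. On the right, log2 differences with 95% intervals for the 9 genes above background on 1 or 2 siCONT arrays, of which TEX101, TDRD6, PIWIL4, TEX14 and REC8 were called higher; TEX101 and TEX14 were below background on 1 siCONT array, so their points are not exact.

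Second probes of other genes also differed. STK31 had a probe at 31.0% on siCONT replicate 2 and at 1.12% on replicate 1; it was at 128% with 5-aza-dC and below background on both siUHRF1 + TSA arrays. The second TDRD6 probe was above background on 1 siCONT array (7.24%) and was at 2.58%, below background, with 5-aza-dC. The second probes of SOHLH2 and TDRD1 were above background with 5-aza-dC (6.24% and 47.7%) but not in siUHRF1 + TSA. MOV10L1 had 2 more probes, both below background on all arrays. RNF17 had another probe below background with 5-aza-dC, and TDRD5 a second probe above background on 1 siUHRF1 + TSA array at 6.82%.

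The 5-aza-dC array was also set directly against siUHRF1 + TSA, a comparison added after the data had been seen. Of the 38 genes, 30 were tested, and 24 of these were higher with 5-aza-dC and 1 lower, beside 19.5% and 25.1% of gene names tested. For 17 of the 30 the filter was passed through the 5-aza-dC array alone, which largely fixed their direction in advance. With spike-in scaling the numbers were 21 and 4, and with normexp background correction 16 and 2. SOHLH1, on in both, was 1.96 higher with 5-aza-dC on the log2 scale (SE 0.34, adjusted p = 0.00596), and 0.42 higher with spike-in scaling, which was not called (adjusted p = 0.103). The differences were 2.82 for SOHLH2 (SE 0.26), 3.93 for STK31 (SE 0.37) and 4.89 for TDRD1 (SE 0.12), with adjusted p of 0.000669, 0.000664 and 6.55e-06. For TEX101 the difference was 1.93 (95% interval 0.08 to 3.78, adjusted p = 0.0849) and was not called. NANOS3 was the gene that was lower, by 1.18 on the log2 scale (log2 -1.18, SE 0.29, adjusted p = 0.0215). All of these carry the slide and scan of the 5-aza-dC array.

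Another 70 genes of the same processes were on the array and are given for context. Over all gene names tested, 16.1% were higher and 8.07% lower in siUHRF1 + TSA against siCONT. Of 13 further piRNA genes, 7 were tested on the siRNA arrays and 9 with 5-aza-dC, 1 was called higher in siUHRF1 + TSA against siCONT and 1 lower, and with 5-aza-dC 3 were higher and 1 lower. GTSF1, a zinc finger protein of the PIWI pathway, rose at least 8.07-fold in siUHRF1 + TSA (adjusted p = 0.00168) and at least 31.8-fold with 5-aza-dC. HENMT1, which methylates piRNA ends, and PNLDC1, which trims them, rose at least 26.4-fold and 13.0-fold with 5-aza-dC. Of 30 further meiosis genes, 9 and 14 were tested, 2 were higher and 3 lower in siUHRF1 + TSA, and 6 higher and 3 lower with 5-aza-dC. MEI1, needed for meiotic breaks, rose at least 6.04-fold in siUHRF1 + TSA and at least 23.0-fold with 5-aza-dC. PSMC3IP, a cofactor of DMC1 that proliferating cells also express, was lower by 1.66 log2 units (log2 -1.66) after the combination (adjusted p = 0.00154). Of 27 further germ cell genes, 9 and 15 were tested, 4 were higher and 1 lower in siUHRF1 + TSA, and 12 higher and 0 lower with 5-aza-dC, where all gene names tested had 25.2% higher and 23.9% lower. DPPA2, a factor of pluripotent and germ cells, rose at least 1.72-fold and 3.70-fold in these conditions, and CTCFL, the germline relative of CTCF, at least 15.1-fold with 5-aza-dC. UHRF1 loss alone called 0 of these 70 genes by limma, with 1 at an unadjusted p below 0.05. Only 7 of the piRNA, 9 of the meiosis and 9 of the germ cell genes were tested there. Of all gene names tested, 0.614% were higher and 0.0282% lower. RBM44 and TEX19 were above background on both siUHRF1 arrays but not on both siCONT arrays, and were not called.

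The promoter table held 33 of the 38 genes. Their promoters had a median of 26 CpG in 300 bases and a median GC content of 66.3%, against 14 CpG and 58.3% over the 27305 promoters of the table. The 4 genes silent in siCONT that came on in siUHRF1 + TSA had a median of 24 CpG by the same probes, the 15 that came on with 5-aza-dC but not on both siUHRF1 + TSA arrays had 27, the 7 that were above background on no array had 29, and the 6 above background on all 9 arrays had 24. These counts ranged from 17 to 28, from 1 to 60, from 13 to 34 and from 8 to 37, and so overlapped. DDX4, with 1 CpG in the entry used, and MAEL, with 60, both came on with 5-aza-dC. Only the first entry of each gene was read, so other transcription starts of a gene, DDX4 included, were not examined. The E-box CACGTG, which reads the same on both strands and contains a CpG, was in 7.43% of all promoters and in 7 of these 33. The 4 genes silent in siCONT that came on in siUHRF1 + TSA held it, with 3 copies in SOHLH1, 2 in STK31, 2 in TDRD1 and 1 in SOHLH2. So did 2 of the 15, 0 of the 7 seen on no array and 1 of the 6 seen on all. TEX101, seen on 1 siCONT array and called higher in siUHRF1 + TSA, had 3 CpG and no E-box. By another of its probes STK31 was above background on 1 siCONT array, so the group of 4 depends on the probe. The letters TCCCGC or GCGGGA, an E2F motif on either strand, were in 26.8% of all promoters, in 19 of the 33, in 1 of the 4, in 10 of the 15, in 5 of the 7 and in 3 of the 6. These are matches of letters in a short window, given without a test.

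**Figure D5:**
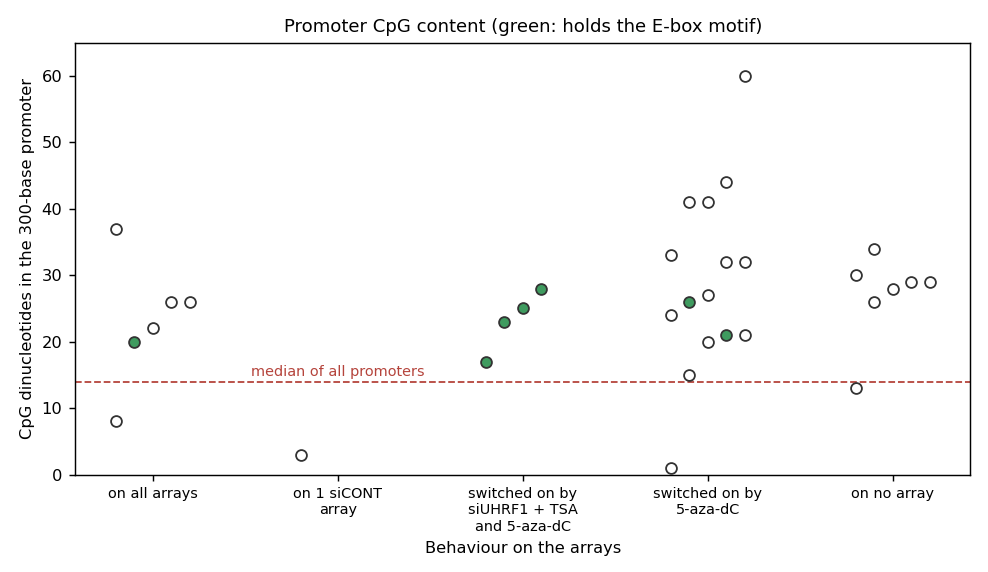
CpG dinucleotides in the 300-base promoter of the 33 genes with an entry, by their behaviour on the arrays. Green points hold the E-box motif, and the dashed line is the median of all promoters (14 CpG). The 4 genes below background in siCONT that came on in siUHRF1 + TSA are green. TEX101 (3 CpG), above background on 1 siCONT array and called higher in siUHRF1 + TSA, is not.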

How the data were processed

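Spot intensities were deposited by the authors as Agilent Feature Extraction output (version 10.7 per the labels, 10.7.3.1 per the file headers), background-subtracted, without normalization between arrays. The study's methods name GeneSpring GX, and its normalization is not given in the sources used here. Each array's 75th percentile was subtracted from its log2 intensities, outlier spots were left out and spots of a probe averaged. A probe entered a fit when above background (over 50% of its spots) on every array of 1 or more groups. Linear models (limma 3.58.1, R 4.3.3, with eBayes) were fitted to the 8 siRNA arrays, or to 9 arrays for 5-aza-dC, without a replicate block, and the threshold was 0.05 for p adjusted by Benjamini-Hochberg over all probes of the fit (23726 or 27175). The probe with the highest mean over the 9 arrays represented a gene. The procedure was tested on simulated data. Every gene is named by level or detection, with full statistics for called genes whose groups did not overlap, for genes above background on all arrays and for UHRF1. The genes and lists were chosen with earlier results of these data known. Probe positions are on hg19 and promoters on GRCh38.p14, with the first entry of a gene used. The number of arrays limits the precision. Alternatives were normexp (offset 50), quantile and spike-in normalization, other filters, priors, blocks and arrays left out, and the methods' t-test. The deposited value table holds the same intensities, rounded.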

Additional observations from a re-analysis of the deposited data

Results flagged for a closer look

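The effect of UHRF1 loss on TDRD1 was fitted as different between TSA-treated and mock-treated cells, by 2.37 on the log2 scale (adjusted p = 0.0025 by limma), a test of the difference between the 2 effects. TDRD1 was above background in siUHRF1 + TSA alone among the siRNA groups, at 5.97% and 6.19% of the 75th percentile, and it entered the fit through that group, so 3 of the 4 group means lie below background and the size is not a measured value. With normexp background correction the fitted difference was -0.22.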

How the results depend on the processing

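Over 76 log2 differences of named genes and UHRF1, 674 alternative values were computed, of which 597 kept direction and call, 67 lost the call and 10 turned direction. This tally leaves out the replicate block, the trended and robust prior, fits of only the groups compared, probe means and the methods' t-test. Genes that a filter dropped are not in it either, so calls lost in these ways are not counted. With normexp background correction the numbers of genes called higher were 0 (siUHRF1), 0 (siCONT + TSA), 3 (siUHRF1 + TSA against siCONT), 1 (against siCONT + TSA), 2 (against siUHRF1), 0 (difference of effects) and 16 (5-aza-dC against siCONT), where the main numbers were 1, 2, 5, 4, 6, 1 and 25. Turned under normexp were PIWIL4 in siCONT + TSA (0.078), SOHLH2 (-0.17) and TDRD1 (-0.24) under TSA, the TDRD1 difference of effects (-0.22), SYCP2 (-0.32) and PIWIL2 (-0.25) with 5-aza-dC against siCONT, and SYCP2 (-0.39) and PIWIL2 (-0.30) against siUHRF1 + TSA. With spike-in scaling UHRF1 turned with 5-aza-dC (-0.70 against siCONT) as did REC8 against siUHRF1 + TSA (-0.16), and 1 gene was called higher in siCONT + TSA. The causes were not tested. Probes above background on every array left 0 genes called higher in the 6 siRNA comparisons and 3 in each 5-aza-dC comparison, since few of these genes pass that filter.

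For siCONT + TSA, other counts were 0 without a filter, 1 with a trended and robust prior (which gave 0 for the difference of effects), 6 with the arrays of the groups compared only, and 5 by the methods' t-test unadjusted, which gave 2 for siUHRF1. After Benjamini-Hochberg adjustment the methods' t-test called 0 for siUHRF1, 2 for siUHRF1 + TSA against siCONT, and 0 against siCONT + TSA, against siUHRF1 and in both 5-aza-dC comparisons. With each array left out in turn the counts ranged from 0 to 4 for siCONT + TSA and from 1 to 2 for the difference of effects (2 without siUHRF1 replicate 2). Each siCONT and siCONT + TSA array left out gave 0 for siCONT + TSA, each siUHRF1 array 4, and each siUHRF1 + TSA array 1. Where 1 array of a group remained, its spread was taken from the other groups. Replicate numbers did not pair the arrays: correlations of replicate differences ran from -0.05 to 0.08, except 0.47 between siUHRF1 and siUHRF1 + TSA, which share siRNAs. With the replicate block the numbers called higher were 1, 2, 6, 4, 4, 1 and 25. TDRD6 was gained in siUHRF1 + TSA against siCONT (adjusted p = 0.0465). A slide or scan block could not be fitted. Spike-in scaling moved the share of called gene names that were higher from 64.4% to 37.4% in siCONT + TSA. Signals under an array's own limit (4.34% to 5.93% of the 75th percentile on siRNA arrays, 3.40% for 5-aza-dC) were not measurable.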
